A study of Mus with 6 samples.

Results

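The genes described here encode proteins that remove introns from pre-mRNA in activated CD4+ T cells. They are the genes of the deposited table whose symbols begin with Srsf and a digit, Hnrnp, Sf3a, Sf3b, Snrp, Prpf or U2af, and whose mean over the 6 libraries was at least 1 FPKM, a read count scaled for transcript length and for the total of the library. Of 10995 protein-coding genes listed, 67 carried such a symbol and 66 reached this level. The 66 comprised 20 Hnrnp, 12 Prpf, 11 Snrp, 10 Srsf, 9 Sf3a and Sf3b, and 4 U2af genes, with 65 distinct symbols because U2af1l4 was listed under 2 overlapping identifiers (ENSMUSG00000078765.11 and ENSMUSG00000109378.1). The rule used only symbols and levels averaged over both treatments, although it was chosen with earlier results of these data known.

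The spliceosome is built from small nuclear ribonucleoproteins, in which a ring of Sm proteins encloses a small nuclear RNA. U2AF marks the 3′ splice site, the SF3A and SF3B complexes belong to the U2 particle that holds the branch site, and the PRP proteins include components of the later particles that form the catalytic core. SR proteins, encoded by the Srsf genes, usually promote the inclusion of exons, whereas hnRNP proteins coat the nascent transcript and often oppose it. In T cells, activation is accompanied by alternative splicing of the transcript for the surface phosphatase CD45, for which Hnrnpll is a known regulator.

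Naive CD4+ T cells from the spleen of wild-type mice were activated for 3 days with anti-CD3 (5 μg/mL), anti-CD28 (2 μg/mL) and IL-2 (100 U/mL). All cells thus received the same activation, and there was no unstimulated group. They were cultured together with either anti–VEGF-B antibody or normal goat IgG (1 μg/mL each), and total RNA was sequenced in 3 libraries per treatment to ask how neutralizing VEGF-B altered the transcriptome. No source stated whether the 3 libraries of a treatment came from separate mice or cultures, so that the p-values measure only the spread between these libraries.

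One value per gene and library, taken as FPKM, was available, so that the amount of each gene's mRNA was measured and not which exons it contained. FPKM give no read depth, and the counting error behind each value is unknown. In bulk RNA, fewer cells of a type and less RNA per cell cannot be told apart. The 6 libraries were alike in the total assigned to splicing factors, with 3174 to 3302 FPKM, or 1.16% to 1.25% of all FPKM. All 8 CD4+ T cell markers examined were listed (Cd4 at a mean of 69.2 FPKM), and their sum was 574 to 617 FPKM with anti–VEGF-B and 566 to 651 with IgG. Within this list Cd3e and Cd5 were called lower (log2 fold change -0.51 and -0.38, adjusted p = 0.0197 and 0.0343 in limma), and the other 6 were not called. The 2 CD8 markers summed to 3.32 to 4.69 and 2.29 to 4.22 FPKM (Cd8a at a mean of 0.072). One of 6 B cell markers was listed, Cd79b, at 0.798 to 1.33 and 0.665 to 1.34 FPKM. Of 6 myeloid markers 4 were listed, with sums of 4.69 to 5.86 and 4.87 to 20.6 FPKM, the highest in IgG replicate 3. Of 4 NK cell markers 2 were listed, with sums of 0.290 to 0.495 and 0.0514 to 0.542 FPKM, and none of 5 erythroid markers was listed. Their part in the results was not tested. Genes at 0 numbered 59 to 91 per library with anti–VEGF-B and 36 or 37 with IgG.

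With anti–VEGF-B, 12 of the 66 splicing factor genes fell, 4 rose and 50 did not pass the test. The genes that fell were Hnrnpab, Hnrnpa3, Hnrnpr, Hnrnph1, Hnrnpm, Hnrnpu, Srsf5, Srsf6, Sf3b3, Snrpb, Prpf8 and Prpf38a, and those that rose were Hnrnpdl, Sf3b1, Srsf2 and Srsf4. The changes were small, with log2 fold changes from -0.63 to 0.40, and only Hnrnpab exceeded 0.5 in size. A log2 fold change is the anti–VEGF-B mean minus the IgG mean of log2(FPKM + 1), a scale that shrinks the changes of genes with few FPKM. Genes were called where limma gave an adjusted p under 0.05 with Benjamini-Hochberg adjustment over all 8816 genes at a mean of at least 1 FPKM. Among all these genes 23.8% were called lower and 4.87% higher (28.7% in either direction), against 18.2% and 6.06% of the splicing factor genes. At an unadjusted p under 0.05 with a log2 fold change over 0.5 in size, 1 splicing factor gene was lower and 0 were higher, against 11.3% and 1.4% of all genes. Without moderation of the variances, limma called none of the 66, and 0.0681% of all genes in each direction. At an unadjusted p under 0.05 that fit had 19 of the 66 lower and 5 higher, against 28.5% and 7.89% of all genes. With the threshold at an adjusted p under 0.1, 20 were lower, against 33.2% of all genes. The median log2 fold change was -0.078 over the splicing factor genes and -0.15 over all genes tested, and 41 of the 66 lay above the latter.

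**Figure D1:**
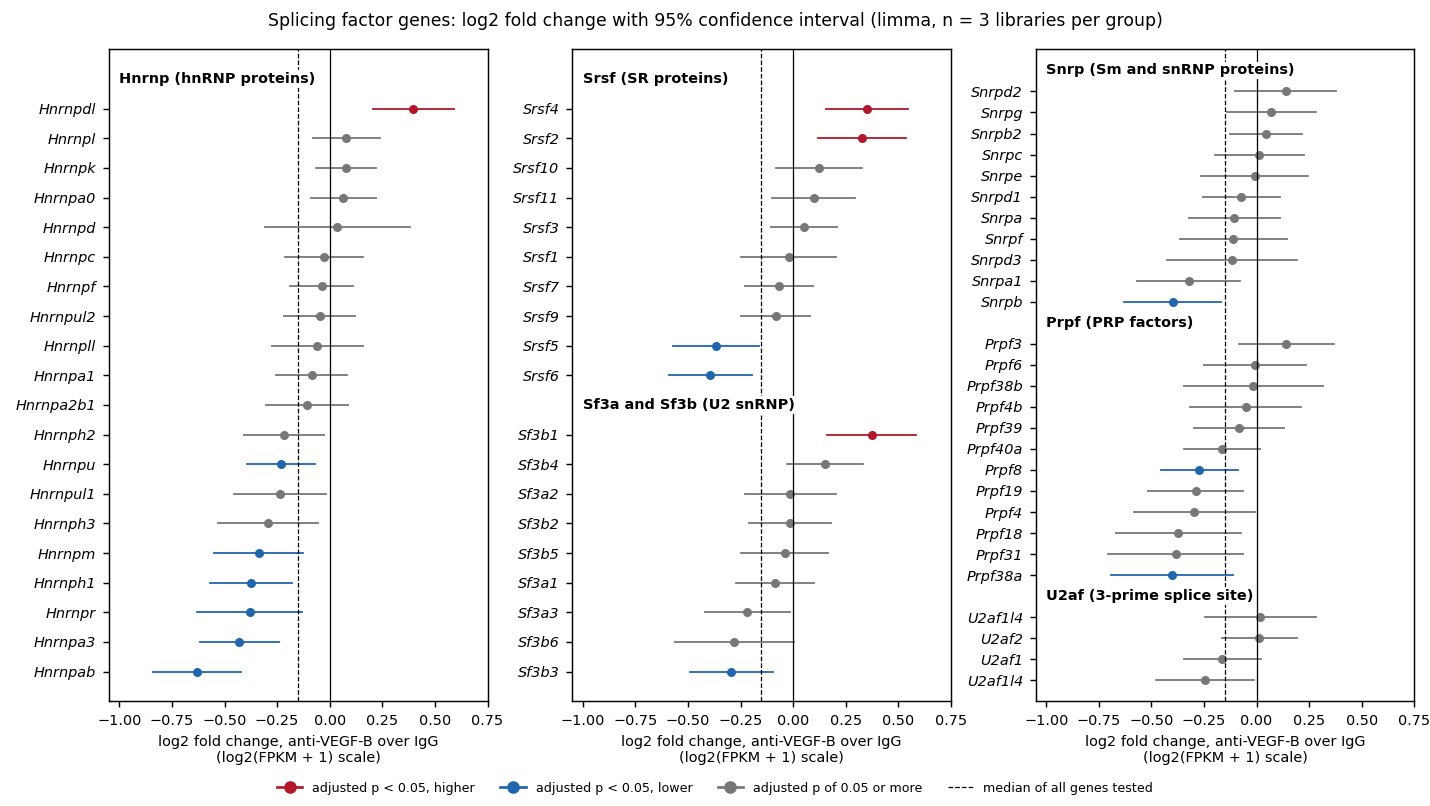
Log2 fold change of each splicing factor gene, anti–VEGF-B over IgG on the log2(FPKM + 1) scale (x axis), with its 95% confidence interval from limma (n = 3 libraries per group), by name group; the dashed line is the median of all genes tested. The 4 genes called higher lie between 0.33 and 0.40, and of the 12 called lower Hnrnpab lies farthest out at -0.63.

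The values of the 3 libraries of one treatment lay wholly below those of the other for 24 genes and wholly above for 6, while for 36 genes the groups overlapped. Over all genes tested, 38.5% were separated downward and 10.5% upward, 49.0% in all. All 16 called splicing factor genes were among the separated ones, together with 14 of the 50 not called. The median SD within a treatment, pooled over both, was 0.104 on the log2 scale for the splicing factor genes and 0.128 for all genes tested.

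The direction of the median gene depended on how the libraries were scaled. With median centring the splicing factor genes had a median log2 fold change of 0.12, and 1 was called lower and 9 higher (9.15% and 15.5% of all genes). With quantile normalization the median was -0.018, and 10 were called lower and 4 higher (10.4% and 9.98% of all genes). Scaling to the same FPKM sum gave 8 lower and 4 higher (20.6% and 3.9% of all genes), Actb gave 4 and 3 (14.8% and 4.14%), and cyclic loess normalization gave 10 and 4 (10.6% and 9.66%). Each of the 16 called genes kept its direction under all 5 other scalings, but only Hnrnpab, Hnrnpdl, Sf3b1 and Srsf4 also kept an adjusted p under 0.05 in limma under every one of them.

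**Figure D2:**
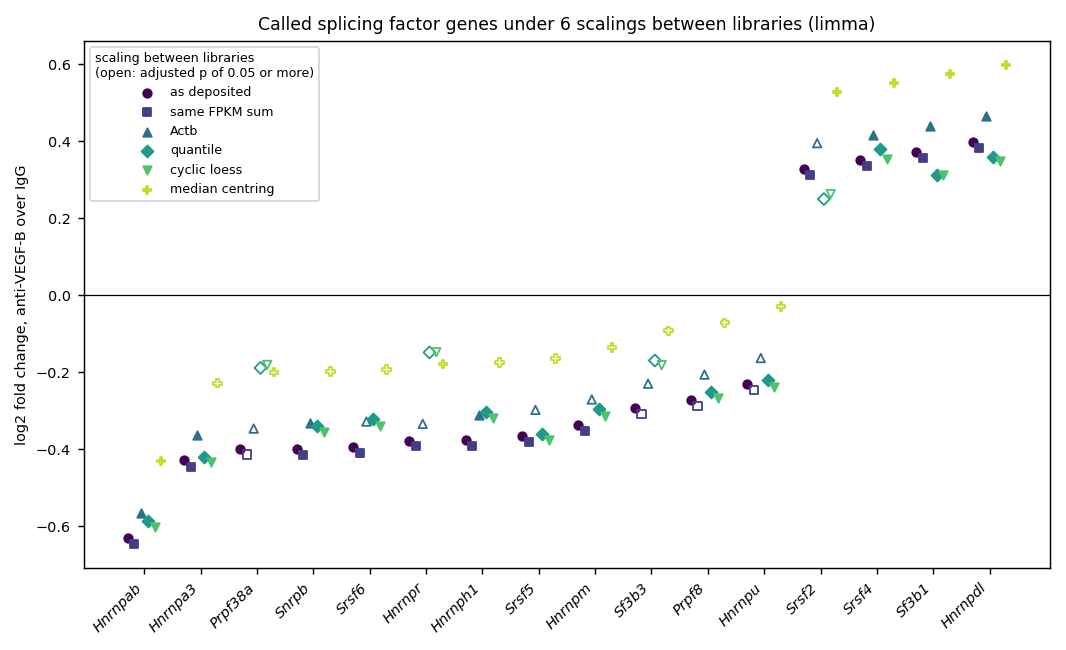
Log2 fold change, anti–VEGF-B over IgG (y axis), of the 16 called splicing factor genes under 6 scalings between libraries (symbols), filled where the adjusted p from limma was under 0.05 and open where not. Each gene stays on its side of 0 under every scaling, and median centring moves all 16 upward, Hnrnpab from -0.63 to -0.43.

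The hnRNP genes held the largest fall and the largest rise. Of 20 genes 6 were called lower (30.0%) and 1 higher (5.0%), against 23.8% and 4.87% of all genes. The median log2 fold change of -0.097 became 0.10 with median centring and stayed below 0 under the other 4 scalings. Hnrnpab (chromosome 11, 51600100 to 51606847, minus strand, GRCm38) encodes an RNA-binding protein of the A/B type. It measured 28.8, 28.6 and 26.1 FPKM in anti–VEGF-B replicates 1 to 3 and 41.3, 49.6 and 40.6 FPKM in IgG replicates 1 to 3. Every anti–VEGF-B library was far below every IgG library, and IgG replicate 2 was the highest of its group. The means were 27.9 ± 1.49 and 43.8 ± 4.99 FPKM (SD, n = 3), and the log2 fold change was -0.63 ± 0.0931 (SE) with an adjusted p of 0.00511 in limma. It was called without any 1 library, and with no moderation of the variance its adjusted p was 0.0698 (0.00495 to 0.0698 across its alternatives).

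Hnrnpa3, a relative of hnRNP A1 (chromosome 2, 75659261 to 75669407, plus strand), measured 43.9, 42.4 and 42.4 FPKM with anti–VEGF-B and 52.5, 63.8 and 58.6 FPKM with IgG. The anti–VEGF-B libraries were close to one another and all lay below the IgG libraries. The log2 fold change was -0.43 ± 0.0836 (SE, n = 3, adjusted p = 0.00987 in limma), and the gene was called without any 1 library. Hnrnpr, which binds RNA in the nucleus and in transport granules (chromosome 4, 136310942 to 136359447, plus strand), was scarce. It measured 1.48, 1.47 and 1.50 FPKM with anti–VEGF-B and 1.96, 2.68 and 2.11 FPKM with IgG. The groups did not overlap and IgG replicate 2 stood highest. Its log2 fold change of -0.38 ± 0.111 (SE, n = 3, adjusted p = 0.0334 in limma) shrank to -0.29 without this library (adjusted p = 0.0779, with a range of 0.0264 to 0.235 across its alternatives), and the call was also lost on leaving out each anti–VEGF-B library or IgG replicate 3 in turn. The other 3 genes called lower, Hnrnph1, Hnrnpm and Hnrnpu, had log2 fold changes from -0.38 to -0.23. Hnrnph1 lost its call without anti–VEGF-B replicate 3, Hnrnpm without anti–VEGF-B replicate 1, anti–VEGF-B replicate 3 or IgG replicate 2, and Hnrnpu without these 3 or IgG replicate 3.

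Hnrnpdl rose. It encodes a protein close to hnRNP D (chromosome 5, 100033577 to 100039664, minus strand) and measured 119, 126 and 138 FPKM with anti–VEGF-B and 99.6, 88.6 and 102 FPKM with IgG. The lowest anti–VEGF-B library, replicate 1, was above the highest IgG library, replicate 3. The means were 128 ± 9.71 and 96.7 ± 7.10 FPKM (SD, n = 3), and the log2 fold change was 0.40 ± 0.0854 (SE, adjusted p = 0.0129 in limma). Leaving out anti–VEGF-B replicate 3 gave 0.34 (adjusted p = 0.0533, with a range of 0.0105 to 0.0824 across its alternatives). Hnrnpd itself, named here after its values were seen, measured 8.73, 9.20 and 13.9 FPKM with anti–VEGF-B and 9.80, 9.76 and 10.8 FPKM with IgG. These groups overlapped, and anti–VEGF-B replicate 3 was both the highest library and far from the other 2 of its treatment (adjusted p = 0.871 in limma).

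Hnrnpa1 was the most abundant of all 66 genes and made up 18.0% to 19.9% of their summed FPKM in a library. It binds exonic and intronic silencers and measured 632, 570 and 607 FPKM with anti–VEGF-B and 658, 631 and 631 FPKM with IgG. The groups overlapped, and the log2 fold change of -0.086 had a 95% confidence interval from -0.25 to 0.081 (adjusted p = 0.396 in limma). The direction and the call depended on the scaling, with a difference of 0.11 after median centring and calls as lower after quantile normalization (-0.23, adjusted p = 0.0257 in limma) and cyclic loess normalization (-0.20, adjusted p = 0.0310), within a range of 0.0257 to 0.915 across its alternatives. Hnrnpa1 and Hnrnpa3 have processed pseudogenes with which reads could have been shared, so their levels are uncertain. Hnrnpll was scarce and overlapped between treatments, at 1.89, 1.96 and 2.16 FPKM with anti–VEGF-B and 2.03, 2.20 and 2.14 FPKM with IgG. Its log2 fold change was -0.059 (95% confidence interval -0.28 to 0.16, adjusted p = 0.662 in limma) and was above 0 with quantile, cyclic loess and median scaling.

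Among the 10 SR protein genes, 2 rose and 2 fell, where 4.87% of all genes were called higher and 23.8% lower. The other 6 had log2 fold changes from -0.083 to 0.12. The median was 0.016, with 5 genes below 0 and 5 above, where 71.2% of all genes tested were below 0. With scaling to the same FPKM sum it was 0.00023, in effect 0, and it was 0.054 to 0.22 under the rest. Srsf4 (chromosome 4, 131873617 to 131901706, plus strand), one of the longest SR proteins, measured 47.2, 55.9 and 53.7 FPKM with anti–VEGF-B and 43.4, 38.3 and 40.6 FPKM with IgG. All anti–VEGF-B libraries were above all IgG libraries, and the means were 52.3 ± 4.52 and 40.8 ± 2.56 FPKM (SD, n = 3). This was a log2 fold change of 0.35 ± 0.0868 (SE, adjusted p = 0.0194 in limma). Srsf2, the SR protein long used to mark nuclear speckles (chromosome 11, 116849901 to 116853094, minus strand), was the most abundant of the group. It measured 165, 190 and 204 FPKM with anti–VEGF-B and 144, 141 and 159 FPKM with IgG. Here the groups came close, with 165 FPKM in anti–VEGF-B replicate 1 against 159 in IgG replicate 3. Srsf2 had a log2 fold change of 0.33 ± 0.0935 (SE, n = 3, adjusted p = 0.0311 in limma).

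Srsf6 and Srsf5 fell. Srsf6 (chromosome 2, 162931528 to 162937121, plus strand) measured 21.9, 22.5 and 25.6 FPKM with anti–VEGF-B and 29.0, 33.1 and 30.6 FPKM with IgG. Srsf5 (chromosome 12, 80945504 to 80950507, plus strand) measured 45.5, 46.0 and 51.5 FPKM with anti–VEGF-B and 56.9, 68.7 and 59.7 FPKM with IgG. Both are SR proteins with a pair of RNA recognition motifs, and in both the highest anti–VEGF-B library, replicate 3, stayed below the lowest IgG library, replicate 1. Their log2 fold changes were -0.39 ± 0.0881 for Srsf6 (SE, n = 3, adjusted p = 0.0141 in limma) and -0.36 ± 0.0906 for Srsf5 (SE, n = 3, adjusted p = 0.0194 in limma). Srsf6 was called without any 1 library. Srsf5 was not called without anti–VEGF-B replicate 1, anti–VEGF-B replicate 2 or IgG replicate 2, with adjusted p from 0.0531 to 0.0583 (0.0199 to 0.185 across its alternatives).

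Srsf4 and Srsf2 both lost their calls without anti–VEGF-B replicate 2, anti–VEGF-B replicate 3 or IgG replicate 2, Srsf2 also without IgG replicate 1. Without anti–VEGF-B replicate 3 the log2 fold change was 0.33 for Srsf4 (adjusted p = 0.0695, with a range of 0.0109 to 0.0899 across its alternatives) and 0.26 for Srsf2 (adjusted p = 0.117, with a range of 0.0163 to 0.118). Srsf1 and Srsf3, widely studied SR proteins, were not called (adjusted p = 0.892 and 0.600 in limma). Srsf1 measured 14.6, 16.9 and 16.7 FPKM with anti–VEGF-B and 14.9, 15.7 and 18.4 FPKM with IgG, and Srsf3 measured 64.0, 70.0 and 69.5 against 64.9, 64.2 and 67.1 FPKM. The groups overlapped for both genes, with a 95% confidence interval of the log2 fold change from -0.25 to 0.21 for Srsf1 and from -0.11 to 0.21 for Srsf3.

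**Figure D3:**
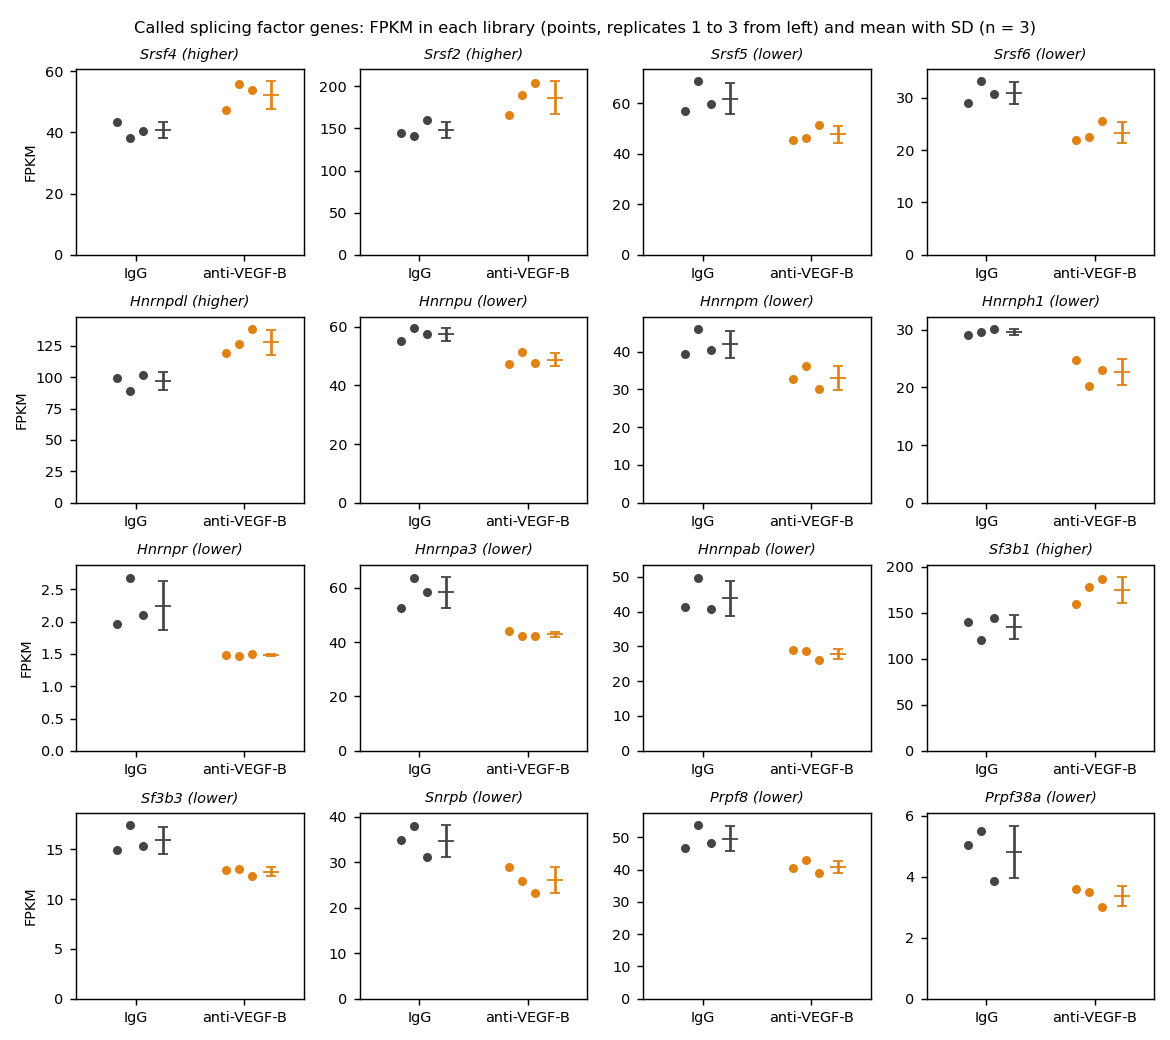
FPKM (y axis, from 0) in each library (points, replicates 1 to 3 from left) and mean with SD (n = 3) of the 16 called splicing factor genes with IgG (dark) and anti–VEGF-B (orange). In no panel do the groups overlap, and IgG replicate 2 is the highest IgG point for 11 of the 12 genes called lower.

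The SF3A and SF3B genes gave 1 rise and 1 fall among 9 (11.1% each, against 4.87% and 23.8% of all genes). The other 7 lay between -0.28 and 0.15 on the log2 scale. Sf3b1, whose product clasps the branch site (chromosome 1, 54985169 to 55027481, minus strand), was the most abundant and rose. It measured 159, 179 and 187 FPKM with anti–VEGF-B and 140, 120 and 144 FPKM with IgG. The groups did not overlap, with IgG replicate 2 lowest and anti–VEGF-B replicate 3 highest. The means were 175 ± 13.9 and 135 ± 12.8 FPKM (SD, n = 3) and the log2 fold change was 0.37 ± 0.0934 (SE, adjusted p = 0.0200 in limma). Without anti–VEGF-B replicate 2, anti–VEGF-B replicate 3 or IgG replicate 2 the call was lost, at log2 fold changes of 0.36, 0.32 and 0.29 (adjusted p = 0.0531, 0.0782 and 0.0548, with a range of 0.0153 to 0.101 across its alternatives). Sf3b3, a scaffold subunit of the same complex (chromosome 8, 110810239 to 110846787, minus strand), fell. It measured 12.9, 13.1 and 12.3 FPKM with anti–VEGF-B and 14.9, 17.5 and 15.3 FPKM with IgG. The 3 anti–VEGF-B values lay close together beneath the lowest IgG value. Its log2 fold change of -0.29 ± 0.0868 (SE, n = 3, adjusted p = 0.0346 in limma) was not past the threshold under any of the 5 scalings or without any library other than IgG replicate 1 (0.0347 to 0.349 across its alternatives).

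A ratio of 2 genes within a library does not depend on the scaling between libraries by a common factor. For each group with calls in both directions, the largest rise was divided by the largest fall, a choice made from the values themselves and therefore given without a test. The ratio of Sf3b1 to Sf3b3 was 12.3, 13.7 and 15.2 with anti–VEGF-B and 9.40, 6.88 and 9.40 with IgG. Srsf4 over Srsf6 was 2.16, 2.49 and 2.10 against 1.50, 1.16 and 1.33, and Hnrnpdl over Hnrnpab was 4.13, 4.41 and 5.28 against 2.41, 1.79 and 2.51. In each pair all anti–VEGF-B libraries were above all IgG libraries, which the choice of genes already separated in opposite directions had fixed.

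Of the 11 Snrp genes 1 fell and none rose by limma, and at an unadjusted p under 0.05 the counts were 2 and 0, against 35.2% and 7.96% of all genes. Snrpb, which encodes the Sm proteins B and B′ (chromosome 2, 130171414 to 130179403, minus strand), measured 28.9, 25.9 and 23.2 FPKM with anti–VEGF-B and 34.8, 37.9 and 31.1 FPKM with IgG. The groups were separated by the narrow step from 28.9 to 31.1 FPKM. The log2 fold change was -0.40 ± 0.103 (SE, n = 3, adjusted p = 0.0222 in limma), and the call was lost without anti–VEGF-B replicate 2, anti–VEGF-B replicate 3 or IgG replicate 2 (adjusted p = 0.0520, 0.0805 and 0.0692, with a range of 0.0161 to 0.148 across its alternatives). Snrpf, another Sm protein and the most abundant of the group, overlapped between treatments at 111, 89.4 and 108 FPKM against 127, 98.8 and 108 FPKM (log2 fold change -0.11, adjusted p = 0.469 in limma), and its difference was 0.089 with median centring.

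The 12 Prpf genes had a median log2 fold change of -0.22 as deposited, the lowest of the name groups, whereas the Hnrnp group was lower with quantile normalization (-0.11 against -0.040) and cyclic loess normalization (-0.12 against -0.048). As deposited, 11 of the 12 were below 0. Under the other scalings 6 to 11 were below 0 and the median was from -0.23 to -0.018. Over all genes tested 71.2% were below 0. The Prpf group also had the lowest median level of the name groups, 7.31 FPKM, against 14.5 to 49.6 FPKM for the rest. Whether level bore on the log2 fold changes of this group was not tested. Only 2 Prpf genes were called, both lower, and 6 of the 12 were lower at an unadjusted p under 0.05, against 35.2% of all genes. Prpf8, the large protein at the heart of the spliceosome (chromosome 11, 75486816 to 75509449, plus strand), measured 40.4, 42.9 and 39.1 FPKM with anti–VEGF-B and 46.6, 54.0 and 48.2 FPKM with IgG. Prpf38a, which joins before activation of the spliceosome (chromosome 4, 108563172 to 108579336, minus strand), measured 3.61, 3.50 and 3.00 FPKM with anti–VEGF-B and 5.04, 5.51 and 3.85 FPKM with IgG. Neither gene's groups overlapped, though IgG replicate 3 of Prpf38a came near the anti–VEGF-B libraries. In limma the log2 fold change was -0.27 ± 0.0808 for Prpf8 (SE, n = 3, adjusted p = 0.0348 in limma) and -0.40 ± 0.129 for Prpf38a (SE, n = 3, adjusted p = 0.0454 in limma). Without IgG replicate 2 they were -0.21 (adjusted p = 0.103, with a range of 0.0256 to 0.475 across its alternatives) and -0.31 (adjusted p = 0.124, with a range of 0.0260 to 0.256). Prpf8 also lost its call without anti–VEGF-B replicate 1, anti–VEGF-B replicate 3 or IgG replicate 3, and Prpf38a without any library other than IgG replicate 3.

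Prpf31, a protein of the U4/U6 particle, was the gene just inside the limit on level, at 1.26, 1.17 and 0.730 FPKM with anti–VEGF-B and 1.49, 2.12 and 1.43 FPKM with IgG. Just outside it was Prpf40b, a factor tied to 5′ splice site recognition, at 0.456 ± 0.0378 and 0.761 ± 0.141 FPKM (SD, n = 3). The groups of both genes were separated downward. Prpf31 was not called, and Prpf40b was below the level at which genes were tested.

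None of the 4 U2af genes was called by limma, and at an unadjusted p under 0.05 1 was lower and 0 were higher, against the same 35.2% and 7.96%. U2af1, the small subunit that reads the AG at the end of an intron, measured 114, 96.6 and 109 FPKM with anti–VEGF-B and 121, 114 and 123 FPKM with IgG. The groups overlapped by a small margin (log2 fold change -0.16, 95% confidence interval -0.35 to 0.019, adjusted p = 0.152 in limma), and the difference was 0.038 with median centring. The overlapping pair of U2af1l4 entries had log2 fold changes of -0.24 and 0.018, and because reads could have been split between them their values are uncertain.

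**Figure D4:**
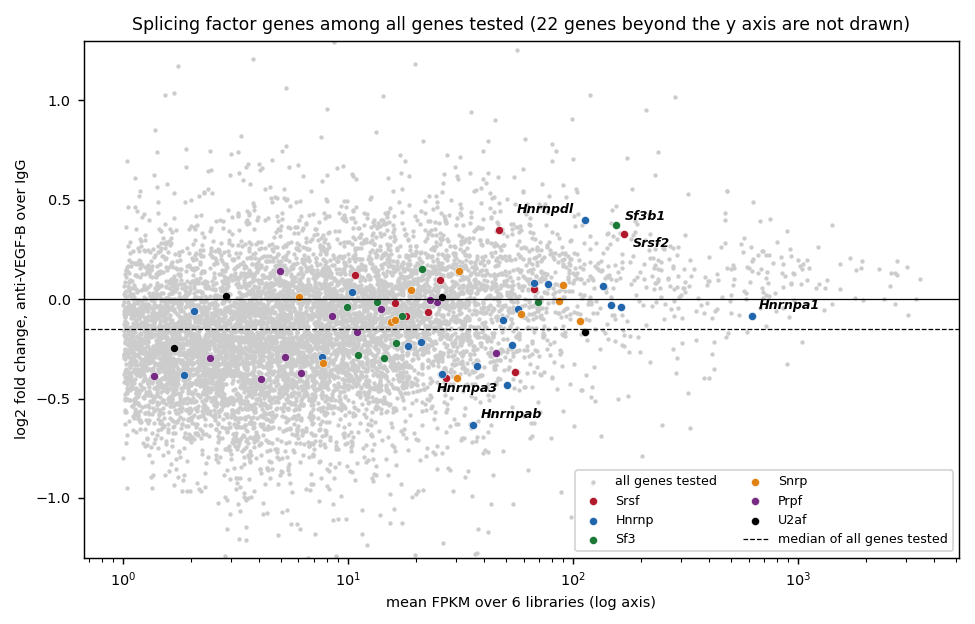
Log2 fold change, anti–VEGF-B over IgG (y axis), against mean FPKM over the 6 libraries (log x axis) for all genes tested (grey; 22 genes beyond ±1.3 are not drawn) and the splicing factor genes by name group (colors), with the all-gene median as a dashed line. Splicing factor genes are abundant, with a median of 22.8 FPKM against 6.10 for all genes tested, and lie where the grey points are centred nearer to 0.

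The splicing factor genes were abundant, with a median level of 22.8 FPKM against 6.10 FPKM for all genes tested, and abundant genes as a whole had log2 fold changes nearer to 0. At a mean of at least 10 FPKM, a limit chosen after the values were seen, 51 splicing factor genes had a median log2 fold change of -0.051 and 3215 genes in all had one of -0.045. At this level 10 splicing factor genes were called lower (19.6%) and 4 higher (7.84%), against 18.0% and 9.46% of all genes. These shares were near the background, so that the counts did not set splicing factor genes apart.

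Single libraries weighed on the calls, but which libraries did so differed between genes. IgG replicate 2 was the highest IgG library for 11 of the 12 genes called lower and the lowest for 4 of the 4 called higher. It was the highest for 34 of all 66, and its rank over all genes tested is not given here. Anti–VEGF-B replicate 1 was the lowest of its treatment for 4 of the 4 genes called higher. Without IgG replicate 2, 4 genes were called lower and 1 higher, against 12.5% and 2.93% of all genes in that fit. Without anti–VEGF-B replicate 3 the counts were 4 and 0 by limma, against 7.88% and 1.86% of all genes, and 16 and 4 at an unadjusted p under 0.05, against 26.7% and 6.08%. Among the genes called lower, Hnrnpab, Hnrnpa3 and Srsf6 were called in all 6 fits that left out 1 library, and none of the genes called higher was. Of the called genes, Hnrnpab, Hnrnpm, Hnrnpu, Sf3b3 and Srsf2 overlap another listed gene, and the strand setting of the counting was not given in the sources used here, so that reads of the overlapping gene could enter their values.

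Splicing genes outside these names were examined as 8 lists of 123 genes, of which 119 were tested. Of these 16 fell (13.4%) and 10 rose (8.40%), against the 23.8% and 4.87% of all genes given above, and the median log2 fold change was -0.045. Their median level was 14.7 FPKM, against 6.10 for all genes tested. All genes at a mean of at least 10 FPKM had 18.0% called lower, 9.46% higher and a median of -0.045, although the 119 were not held to that limit.

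Of the exon junction complex, which marks spliced junctions on mRNA, all 4 tested genes were called, 3 lower and 1 higher. Among all genes tested 23.8% were called lower and 4.87% higher, and this list was written with earlier results of these data known. Eif4a3, its RNA-clamping helicase, measured 19.0, 16.7 and 17.3 FPKM with anti–VEGF-B and 26.4, 30.5 and 22.9 FPKM with IgG. Magoh, a partner of the clamp, measured 32.7, 26.6 and 26.6 FPKM with anti–VEGF-B and 40.9, 38.9 and 36.7 FPKM with IgG. In both genes every anti–VEGF-B library was below every IgG library. The log2 fold change was -0.56 ± 0.108 for Eif4a3 (SE, n = 3, adjusted p = 0.00981 in limma) and -0.43 ± 0.0956 for Magoh (SE, n = 3, adjusted p = 0.0141 in limma). The other 2 genes, named after their values were seen, were Rbm8a at -0.40 (adjusted p = 0.0155 in limma) and Casc3 at 0.22 (adjusted p = 0.0474) on the log2 scale. Magoh and Rbm8a were not called with median centring (adjusted p = 0.135 and 0.105) or without anti–VEGF-B replicate 3 (0.0564 and 0.0607), with ranges of 0.0125 to 0.135 and 0.0155 to 0.105 across their alternatives. Casc3 was not called with scaling to Actb (0.0962) or to the same FPKM sum (0.105), nor without any 1 of the 6 libraries, with a range of 0.0124 to 0.139.

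The kinases that phosphorylate SR proteins, listed with their nuclear importer, gave 2 rises and no fall by limma among 8 genes (3 higher and 1 lower at an unadjusted p under 0.05, against 7.96% and 35.2% of all genes). Clk3, a nuclear kinase of SR proteins, measured 32.5, 37.2 and 40.3 FPKM with anti–VEGF-B and 27.8, 25.5 and 27.6 FPKM with IgG. Srpk1, a largely cytoplasmic one, measured 101, 118 and 127 FPKM with anti–VEGF-B and 83.2, 79.8 and 94.2 FPKM with IgG. Neither gene's groups overlapped. Fitted changes on the log2 scale were 0.42 ± 0.0917 for Clk3 (SE, n = 3, adjusted p = 0.0132 in limma) and 0.42 ± 0.101 for Srpk1 (SE, n = 3, adjusted p = 0.0179 in limma). Without anti–VEGF-B replicate 3 the adjusted p was 0.0518 for Clk3 (0.00869 to 0.0833 across its alternatives) and 0.0677 for Srpk1 (0.0117 to 0.104), and without IgG replicate 2 it was 0.0561 for Srpk1. Clk1 measured 57.3, 59.3 and 70.2 FPKM with anti–VEGF-B and 52.9, 50.5 and 56.2 FPKM with IgG. Its groups were close but separated, and it was not called (log2 fold change 0.22, adjusted p = 0.0986 in limma) except with median centring (0.42, adjusted p = 0.0298, with a range of 0.0298 to 0.324 across its alternatives).

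Among 26 snRNP proteins with other symbols, 3 fell (11.5%) and 4 rose (15.4%), against 23.8% and 4.87% of all genes. Snrnp25, a protein of the minor spliceosome, had the largest rise of any splicing gene examined, with 53.2, 44.0 and 63.2 FPKM with anti–VEGF-B and 31.1, 27.1 and 32.0 FPKM with IgG. The groups stood well apart although the anti–VEGF-B libraries scattered, and the log2 fold change was 0.80 ± 0.126 (SE, n = 3, adjusted p = 0.00634 in limma). Zmat5, another minor spliceosome protein, fell from 3.13 to 2.01 FPKM (log2 fold change -0.47 ± 0.136 SE, n = 3, adjusted p = 0.0317 in limma), and of the fits that left out 1 library it was called only without anti–VEGF-B replicate 2. Of the 5 other scalings only the same FPKM sum kept its call (adjusted p = 0.0405, against 0.077 to 0.21 in limma under the rest).

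Of 30 other RNA-binding regulators 7 fell (23.3%) and 1 rose (3.33%), near the 23.8% and 4.87% of all genes. Fubp1, known for binding single-stranded DNA and RNA, measured 5.36, 5.37 and 5.84 FPKM with anti–VEGF-B and 7.51, 8.82 and 8.47 FPKM with IgG. Tardbp, which encodes the exon repressor TDP-43, measured 8.11, 5.73 and 6.67 FPKM with anti–VEGF-B and 10.8, 9.04 and 11.2 FPKM with IgG. Both genes were separated by treatment. Log2 fold changes were -0.51 ± 0.0951 for Fubp1 (SE, n = 3, adjusted p = 0.00904 in limma) and -0.54 ± 0.129 for Tardbp (SE, n = 3, adjusted p = 0.0172 in limma), the latter not called without anti–VEGF-B replicate 3 (adjusted p = 0.0573, with a range of 0.0129 to 0.114 across its alternatives). Tardbp was also not called with quantile normalization (adjusted p = 0.0976 in limma), cyclic loess normalization (0.0914) or median centring (0.114).

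The remaining lists held few calls, where 23.8% of all genes were called lower and 4.87% higher. Of 21 Prp19 complex and catalytic proteins 1 fell and 2 rose, among them the peptidyl-prolyl isomerase Ppil1 at -0.59 ± 0.124 and the first-step factor Isy1 at 0.40 ± 0.0795 on the log2 scale (SE, n = 3, adjusted p = 0.0125 and 0.0107 in limma). Of the 5 other scalings, quantile normalization lost the call of Ppil1 (adjusted p = 0.0545 in limma). One of 13 SR-related proteins fell, Son, a core protein of nuclear speckles (log2 fold change -0.28 ± 0.0907 SE, n = 3, adjusted p = 0.0441 in limma), which of the fits that left out 1 library was called only without IgG replicate 1. Under the 5 other scalings Son was not called, with adjusted p from 0.0512 to 0.481 in limma. One of 10 snRNP assembly genes fell, Gemin5, the SMN complex subunit that binds small nuclear RNA, from 2.41 to 1.41 FPKM (log2 fold change -0.50 ± 0.112 SE, n = 3, adjusted p = 0.0143 in limma). It was not called without anti–VEGF-B replicate 3 (adjusted p = 0.0598 in limma), with quantile normalization (0.0693) or with cyclic loess normalization (0.0657). The range of its adjusted p across its alternatives was 0.0128 to 0.0747. None of the 7 LSm ring genes was called by limma, and none had an unadjusted p under 0.05.

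**Figure D5:**
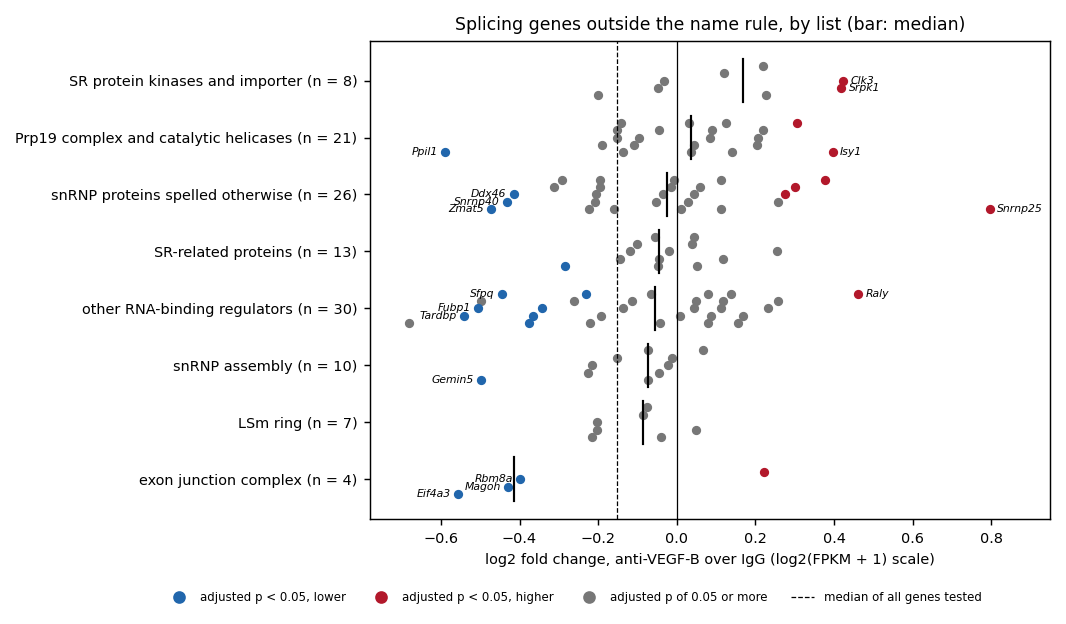
Log2 fold change, anti–VEGF-B over IgG on the log2(FPKM + 1) scale (x axis), of 119 splicing genes outside the name groups in 8 lists (y axis; points are genes, bars list medians), with the all-gene median as a dashed line. Snrnp25 lies alone at 0.80, 3 of the 4 exon junction complex genes lie between -0.56 and -0.40, and Clk3 and Srpk1 both lie at 0.42.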

How the data were processed

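RNA-Seq was made from naive CD4+ T cells activated in the presence of anti–VEGF-B (n = 3) or IgG (n = 3). The authors used a stranded kit, aligned the reads to GRCm38 with hisat2, and quantified transcripts with StringTie and Ballgown. The deposited file holds FPKM, 1 value per protein-coding gene and library. Raw counts are mentioned in the methods, but the values are not whole, so that no count model was run. Without read depth, the only error is the spread between libraries. No scaling between libraries was stated, and none was applied.

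Expression on the log2(FPKM + 1) scale was fitted for 8816 genes (mean over the libraries at or above 1 FPKM) in limma 3.58.1 (R 4.3.3, empirical Bayes with trend, no covariate) with all 6 libraries. P-values were adjusted over all these genes (Benjamini-Hochberg, two-sided), with calls made at an adjusted p under 0.05. The method was tested on simulated libraries with independent normal errors and no shift between libraries. That test cannot speak to the effect of the scaling or of single libraries. The alternatives changed the scaling, filter, pseudocount, moderation, threshold, replicate block and libraries included.

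The members, the lists and the tests were chosen with earlier results of these data known. Named were, in each name group, up to 4 called genes with the largest changes and the most abundant gene, and over all groups the 2 highest and 2 lowest changes. Hnrnpll, Srsf1, Srsf2 and Srsf3 were also named, as were up to 2 called genes of each further list, Clk1, Srpk1 and the genes just inside and outside 1 FPKM. Other names are said to be outside this rule or stand in counts. All 66 members matched RefSeq, with 1 to 18 curated mRNAs each. No sequence is printed.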

Additional observations from a re-analysis of the deposited data

How the results depend on the processing

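All 16 called splicing factor genes kept their direction in every alternative run. Of the 50 not called, 29 changed sign in at least 1 run and 10 passed the threshold in at least 1. Among the latter was Hnrnpa1, lower with quantile and cyclic loess normalization. The alternatives refit the same libraries, and calls favor changes that are large against their spread, so this contrast was in part fixed in advance. The same figures over all genes are not given here. Of the counts (12 lower and 4 higher), median centring gave 1 and 9, scaling to Actb 4 lower, an adjusted p under 0.1 20 lower, and an unadjusted p under 0.05 with a log2 fold change over 0.5 gave 1 and 0. With no moderation 0 were called in either direction by limma (19 lower and 5 higher at an unadjusted p under 0.05). Leaving out 1 library gave 4 to 12 lower and 0 to 4 higher. Of all genes, 7.88% were lower and 1.86% higher without anti–VEGF-B replicate 3, and 12.5% and 2.93% without IgG replicate 2. Shares for the remaining fits of this kind are not given here. For the other splicing genes (16 lower and 10 higher), quantile normalization gave 7 lower, cyclic loess 8 and Actb 9. Of all genes 10.4%, 10.6% and 14.8% were lower in these fits. Median centring gave 4 lower and 30 higher (9.15% and 15.5% of all genes). No moderation gave 0 and 1 (0.0681% of all genes in each direction), and 24 and 12 at an unadjusted p under 0.05 (28.5% and 7.89%). The unadjusted limits gave 5 and 1 (11.3% and 1.4% of all genes), and leaving out 1 library 4 to 14 and 3 to 8. For the fits without 1 library, the all-gene shares are those given above. The cause of these shifts was not tested.

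The median log2 fold change of the splicing factor genes (-0.078) was -0.018 with quantile normalization, -0.020 with cyclic loess, -0.015 with Actb and 0.12 with median centring, and -0.094 to -0.069 without 1 library. Its distance from the all-gene median was 0.074 as deposited, -0.026 with quantile normalization and -0.022 with cyclic loess. Genes not called changed sign with median centring (Hnrnpa1 0.11, Snrpf 0.089, U2af1 0.038, Hnrnpll 0.14, Srsf1 0.18), quantile normalization (Hnrnpll 0.18, Srsf1 0.11) and cyclic loess (Hnrnpll 0.17, Srsf1 0.081). Srsf1 also did so with Actb (0.044), and without 1 library it ran from -0.080 to 0.063, above 0 without anti–VEGF-B replicate 1 (0.043) and IgG replicate 3 (0.063).

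With the replicate number as a block, 13 splicing factor genes were lower and 4 higher, and 17 and 9 of the others. The shares of all genes called in that fit are not given here, so these counts stand without a background. Same-numbered libraries correlated at -0.0296, 0.11 and 0.0891 in their deviations from the group means, and not every library correlated best with its own number, so they were taken to share only a number. Read depth is unknown, which leaves the counting error of low genes such as Hnrnpr and Prpf31 without an estimate.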
